A study of Mus musculus with 20 samples.

Results

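The genes described here move iron into, within and out of mouse macrophages. They are 9 listed genes of the 46318 in the count files: the exporter gene Slc40a1, the ferritin genes Fth1 and Ftl1, the uptake and transport genes Tfrc, Slc11a1 and Slc11a2, the ferritin turnover gene Ncoa4, and the sensor genes Aco1 and Ireb2. They were chosen by name, with earlier results of these data known, and the GeneIDs of the files were matched to mouse symbols. All 9 were among the 13307 genes with enough reads to be tested. RNA came from bone marrow-derived macrophages of female C57BL/6 mice, grown with recombinant M-CSF. Mature cells were kept for 24 h with DMSO (the solvent), with 50 µM DSHN, with 1 µM GW3965, or with 50 µM DSHN and 1 µM GW3965 together. Every group had 5 libraries, 20 in all, and no group was left without solvent or compound. The labels call DSHN an agonist of the nuclear receptor NR0B2 and GW3965 an agonist of the oxysterol receptor LXR. They name 5 biological replicates per treatment but not the mice or cultures behind them, so p-values measure the spread between these libraries, which may be technical.

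Macrophages of the spleen and liver recycle iron from old red blood cells. Heme is broken open, and the iron is either stored inside the shell of ferritin, which is built from heavy chains (Fth1) and light chains (Ftl1), or leaves the cell through ferroportin (Slc40a1), the only known iron exporter of mammals. Iron bound to transferrin enters through the transferrin receptor (Tfrc), and Slc11a2 (DMT1) carries it out of the endosome. Slc11a1 (NRAMP1) pumps metal ions out of phagosomes; C57BL/6 mice carry a natural variant of this protein that does not function. NCOA4 takes ferritin to the lysosome, where the iron is set free. The iron regulatory proteins, IRP1 (Aco1) and IRP2 (Ireb2), bind hairpins called iron-responsive elements (IREs) when iron is low. Binding before the coding part blocks translation, and binding in the 3′ UTR of Tfrc protects the transcript from decay. Read counts show the amount of transcript and not its translation, so the control through 5′ hairpins cannot be seen in them.

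The hairpins are shown because those found here lie before the coding part in Slc40a1, Fth1 and Ftl1 and in the 3′ UTR in Tfrc. Transcripts of GENCODE vM21 (build GRCm38) were searched on the sense strand for CNNNNNCAGTGN with all 5 bases on either side of the loop able to pair (A with T, G with C or T). These letters alone are in a coding transcript of 14702 of 21877 genes (67.2%), and the paired form is in 294 (1.34%). Of the 9 iron genes 4 hold the paired form, in each case in a UTR, and a missing match in the others says only that this pattern was not found in their transcripts. The 30 bases around each match are given 5′ to 3′ with the 6 bases of the loop in capitals. The 5′ UTR matches lie at chr1:45925466-45925495 on the minus strand (Slc40a1), chr19:9982730-9982759 on the plus strand (Fth1) and chr7:45459780-45459809 on the minus strand (Ftl1), and the 4 matches in the 3′ UTR of Tfrc lie at chr16:32631217-32631246, chr16:32631596-32631625, chr16:32631661-32631690 and chr16:32631708-32631737 on the plus strand.
Slc40a1, 5′ UTR: tccaacttcagctaCAGTGTtagctaagtt
Fth1, 5′ UTR: gtttcctgcttcaaCAGTGCttgaacggaa
Ftl1, 5′ UTR: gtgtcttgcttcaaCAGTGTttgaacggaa
Tfrc, 3′ UTR, site 1: ataattatcggaagCAGTGCcttccataat
Tfrc, 3′ UTR, site 2: cacattatcgggagCAGTGTcttccataat
Tfrc, 3′ UTR, site 3: gtctatatcggagaCAGTGAtctccatatg
Tfrc, 3′ UTR, site 4: gtaattatcgggaaCAGTGTttcccataat
Position by position, the windows of Fth1 and Ftl1 share 27 of 30 bases, and that of Slc40a1 shares 13 with Fth1 and 13 with Ftl1. The 4 Tfrc windows share 18 to 25 of 30 bases with each other. The counts pool all transcript forms of a gene, with or without a hairpin.

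Library totals ran from 16855029 to 23796561 counts. Levels are in CPM, the reads of a gene relative to the TMM-scaled total of its library, and each mean ± SD is over 5 libraries. Fold changes are log2 values, and their standard errors (SE) come from edgeR's quasi-likelihood fit to all 20 libraries. A gene is called when its Benjamini-Hochberg adjusted p over 13307 genes is below 0.05. The 5 libraries with both compounds differed from the other 15 in a way that went with gene length. The slope of log2 CPM, taken relative to the mean of all libraries, on log2 exon length was −0.124 to −0.0943 in them and 0.00566 to 0.063 in the others. Over all tested genes, short transcripts thus tended to be counted higher and long ones lower in the combination. Those of ferritin are short (exon lengths of 1511 bases for Fth1 and 970 for Ftl1, against a median of 3758 over tested genes). Ireb2 is long (8474 bases). Whether the trend is technical or a response of the cells was not tested, and a correction for it would remove either. For each of the 9 iron genes, values with a correction for this trend are printed wherever they end a call or turn a direction. For lists of other genes, corrected counts are given for the combination only. Where no corrected value stands beside a single gene of these lists, its combination value is uncorrected and may include this trend. Summed macrophage markers were 15970 to 19200 CPM over all libraries. Most of this was Lyz2, with means of 10260 CPM with DMSO, 12000 with DSHN, 10860 under GW3965 and 11770 with both. The sum therefore says little about the other markers, which are given below. Of 10 erythroid markers 5 had no count in any library, among them Hba-a1, Hba-a2, Hbb-bs and Hbb-bt, and the sum stayed below 2.36 CPM. Reads that match several globin copies may have been left out of the counts, so these values cannot show that globin transcripts were absent. Most of the sum with DMSO was Epor (0.885 CPM), which is not a globin gene. It was the only erythroid marker tested and was called higher with DSHN, GW3965 and both (0.70, 0.74 and 0.60). Fibroblast and stromal markers summed to 2283 to 2877 CPM with DMSO and 2430 to 3083 with DSHN. The sum was 2541 to 3327 under GW3965 and 1905 to 2324 with both. With DMSO it was nearly all collagen (means of 1327 CPM for Col1a1, 1047 for Col1a2 and 208.7 for Col3a1). Pdgfrb had 52.1 CPM there, Pdgfra 5.1, Dcn 0.235 and Lum 0, so the sum alone does not show that stromal cells were present.

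Per kilobase of exon, the ferritin transcripts stood among the most abundant in these cells. With DMSO, Ftl1 had 9305 CPM per kb ± 373.6 and ranked 2 of 13307 tested genes, and Fth1 had 6621 CPM per kb ± 202.3 and ranked 3. Together they took 1.93% ± 0.0652 (SD, n = 5) of all counts with DMSO, 2.3% ± 0.118 with DSHN, 1.95% ± 0.0427 under GW3965 and 2.58% ± 0.0867 with both. The order of the ferritin chains depends on the length used. The exons of Fth1 in the files include an alternative first part, and with the GENCODE coding transcript of 929 bases its DMSO level is 10770 CPM per kb, above the 9324 of Ftl1 (968 bases). The other 7 genes were lower by far. Slc40a1 had 88.1 CPM per kb ± 7.61 with DMSO, in a range that overlapped that of Slc11a1 (78.8 ± 2.6), and Tfrc followed at 55.9 ± 5.22. Aco1 (17.3 ± 0.756), Ireb2 (15.4 ± 0.43) and Ncoa4 (15 ± 2.25) came next, with Ireb2 and Ncoa4 overlapping, and Slc11a2 was the lowest at 9.44 ± 0.333. With each treatment Slc40a1 stood clear of Slc11a1, at 178.5 CPM per kb ± 3.51 with DSHN, 206 ± 8.57 under GW3965 and 197.9 ± 5.67 with both, and its rank among tested genes went from 639 to 281, 249 and 286.

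**Figure D1:**
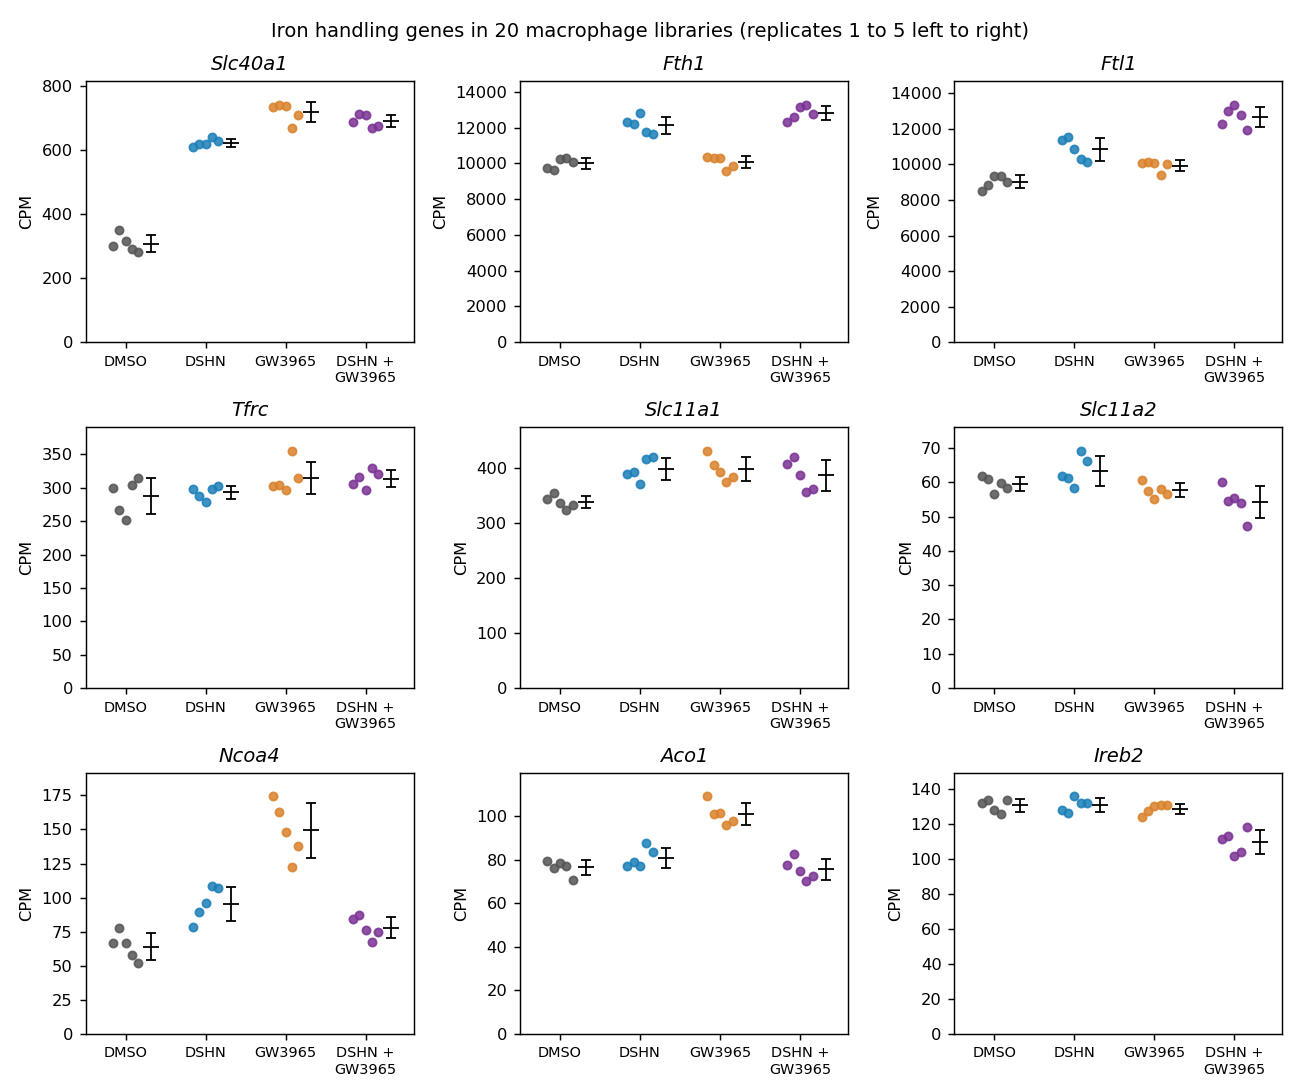
CPM of the 9 iron genes in each of the 20 libraries, by treatment. Points are libraries, with replicates 1 to 5 from left to right, and the black marks are mean ± SD of 5 libraries. Slc40a1 lies between 607.7 and 741.1 CPM in all 15 treated libraries and between 281.3 and 348.9 with DMSO, Ncoa4 is highest with GW3965 alone, and the ferritin genes are highest in the groups that received DSHN.

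Against DMSO, 5 of the 9 iron genes rose with DSHN and none fell, where 28.9% of all tested genes were called, 14.1% higher and 14.8% lower. The same 5 rose with the correction for gene length, where 29.8% were called. In 5 of the 9 the DSHN and DMSO libraries did not overlap, against 18.6% of tested genes. With GW3965, 6 rose and none fell, where 46.5% of tested genes were called, 23.6% higher and 23% lower, and 5 did not overlap (32.1% of tested genes). With total counts only, 4 rose, and the share of higher calls among all called genes went from 50.6% to 36.2%. With the length correction 6 rose, where 47.8% were called. With both compounds 6 rose and 2 fell, where 64.8% of tested genes were called, 31.9% higher and 32.9% lower, and 5 did not overlap (49.7% of tested genes), so the share of iron genes not overlapping was near that of all genes. With the length correction the 2 falls were lost and 6 rises were called, where 58.4% of tested genes were called. The median log2 fold change of the 9 genes was 0.24 with DSHN, 0.14 under GW3965 and 0.19 with both, beside 0.0018, 0.008 and 0.010 over all tested genes. These comparisons share their DMSO libraries, so they are set side by side and not counted as separate evidence. The 9 genes were chosen with earlier results of these data known, so the shares and medians describe them and do not test them as a group.

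**Figure D2:**
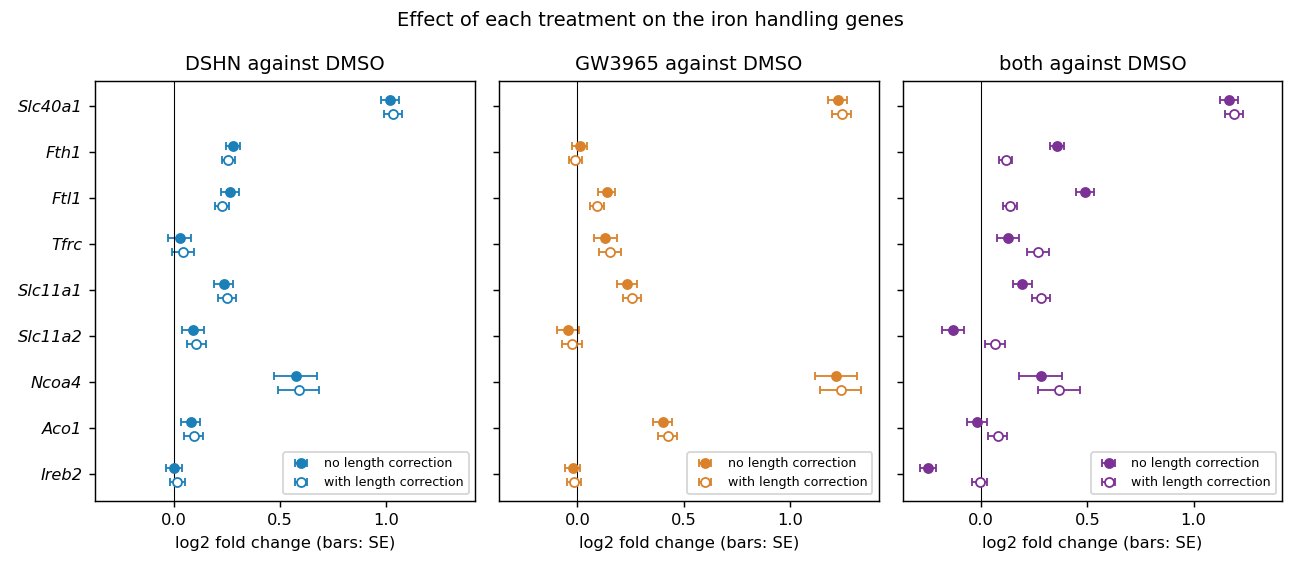
Log2 fold changes of the 9 iron genes against DMSO for DSHN, GW3965 and both compounds, with SE bars. Filled points are without and open points with the correction for gene length. Slc40a1 is near 1.02, 1.22 and 1.17 with either, while the combination's ferritin values drop from 0.36 and 0.49 to 0.12 and 0.14 with the correction.

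The exporter gene Slc40a1 (GeneID 53945, chromosome 1, 45947230 to 45965690 on the minus strand in GRCm39, the build of the files) roughly doubled with every treatment. With DMSO the libraries had 299.2, 348.9, 315.6, 291.1 and 281.3 CPM (307.2 ± 26.5). With DSHN they had 607.7, 618.9, 618.7, 640.8 and 626.5 CPM (622.5 ± 12.2). With GW3965 they had 732.7, 741.1, 738.8, 669.9 and 709.3 CPM (718.4 ± 29.9). Every treated library lay above every DMSO library, and the GW3965 libraries all lay above the DSHN libraries. With both compounds the values were 686.6, 712.2, 708.4, 668.5 and 674.3 CPM (690 ± 19.7), inside the range of GW3965 alone except for 1 library just under its lowest. The log2 fold change was 1.02 with DSHN (SE 0.04, adjusted p = 6.22e-15 by edgeR's quasi-likelihood test), 1.22 with GW3965 (SE 0.04, adjusted p = 4.64e-18) and 1.17 with both (SE 0.04, adjusted p = 1.86e-17). By the size of the change it ranked 78 of 13307 genes with DSHN, 168 under GW3965 and 365 with both.

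Slc40a1 was not raised further by adding DSHN to GW3965. Between the combination and GW3965 alone the log2 difference was −0.058 (SE 0.04, edgeR adjusted p = 0.249), whereas against DSHN alone it was higher by 0.15 (SE 0.04, adjusted p = 0.00408). The difference between the DSHN effect with and without GW3965 was −1.08 (SE 0.06, adjusted p = 1.95e-12), and the length correction left it at −1.08. Slc40a1 has exons of 3487 bases, near the median of tested genes, and no call on it changed in any alternative run, including leaving out each library. In bulk RNA, fewer cells of a type and less RNA per cell cannot be told apart, which holds for this and every value here.

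Few genes had fold changes near those of Slc40a1 in size. Over 9983 other genes that averaged at least 5 CPM, likeness was measured as the root mean square difference in the 3 fitted log2 fold changes against DMSO. The nearest were Gm19253 (difference 0.0813, log2 fold changes 0.96, 1.17 and 1.28 with DSHN, GW3965 and both), the sulfotransferase gene Sult1a1 (0.0911), the pentraxin gene Ptx3 (0.107) and the immunoglobulin heavy chain gene Ighm (0.131), and only Gm19253 and Sult1a1 came within 0.1. For Tfrc, whose fitted changes are small, 1328 genes came within 0.1. The measure depends on the size of the changes, and a gene with large changes has few neighbours whatever its pattern. It therefore cannot show that the pattern is particular to Slc40a1.

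Storage transcripts went up in the groups that received DSHN. Fth1 (GeneID 14319, chromosome 19, 9957964 to 9962475 on the plus strand), the chain that oxidises iron for storage, had 9764, 9608, 10230, 10320 and 10100 CPM with DMSO. With DSHN it had 12320, 12190, 12800, 11740 and 11620 CPM, all above DMSO. With GW3965 the values were 10350, 10290, 10320, 9579 and 9865 CPM, which overlap those with DMSO. Group means were 10000 ± 305.8 with DMSO, 12130 ± 475.9 with DSHN and 10080 ± 343.2 with GW3965. Fth1 thus rose by 0.28 with DSHN (SE 0.03, edgeR adjusted p = 9.02e-07) and stood at 0.011 on the log2 scale with GW3965 (SE 0.03, adjusted p = 0.82). With both compounds it had 12290, 12590, 13140, 13280 and 12760 CPM (12810 ± 403.6), higher by 0.36 than DMSO (SE 0.03, adjusted p = 1.1e-09) and by 0.35 than GW3965 alone (SE 0.03, adjusted p = 4.42e-09). With the length correction these became 0.12 (adjusted p = 0.00204) and 0.13 (adjusted p = 0.00134). Against DSHN alone it stood at 0.078 (SE 0.03, adjusted p = 0.0536), which without DSHN replicate 1, DSHN replicate 3, or replicate 1, 2 or 5 of the combination was called (0.086 to 0.10). It was also called with total counts only (0.097, adjusted p = 0.0163), the stricter filter (0.089, adjusted p = 0.0286), the DESeq2 Wald test (0.076, adjusted p = 0.0368), limma voom (0.078, adjusted p = 0.0292) and the replicate block (0.079, adjusted p = 0.0437), and with the length correction it turned to a called fall, −0.14 (adjusted p = 0.000393).

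Ftl1 (GeneID 14325, chromosome 7, 45107368 to 45109310 on the minus strand), the chain that promotes mineral formation in the shell, had 8528, 8835, 9368, 9378 and 9019 CPM with DMSO. DSHN gave 11400, 11560, 10850, 10320 and 10120 CPM. GW3965 gave 10080, 10140, 10080, 9383 and 10000 CPM. The GW3965 libraries lay just above the DMSO range and the DSHN libraries farther above it, apart from replicate 5 with DSHN, which was within the GW3965 range. The rise was 0.27 with DSHN (SE 0.04, edgeR adjusted p = 1.62e-05) and 0.14 with GW3965 (SE 0.04, adjusted p = 0.00619), and the latter was not called with scaling by total counts only (0.082, adjusted p = 0.0978). With both compounds Ftl1 had 12260, 13010, 13360, 12770 and 11940 CPM (12670 ± 572.1), above all other 15 libraries. It was higher than DMSO by 0.49 (SE 0.04, adjusted p = 6.86e-11; 0.14 with the length correction, adjusted p = 0.000799) and than GW3965 by 0.35 (SE 0.04, adjusted p = 5.01e-08; 0.044 with the correction, adjusted p = 0.279). Against DSHN it was higher by 0.22 (SE 0.04, adjusted p = 3.61e-05), and lower by −0.091 with the correction (adjusted p = 0.0229). Whether ferritin is higher in the combination than with DSHN alone therefore turns on how the length trend is treated.

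The near-identical ferritin pseudogenes carried few reads. Ftl1-ps1 had 131 to 253 counts per library, 0.0928% of the Ftl1 counts over all libraries, and Ftl1-ps2 had 1 to 13. Adding both to Ftl1 changed no call. Reads that match several copies may have been left out of the counts, and their number is not known from the files.

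The balance between the ferritin chains moved with GW3965. The ratio of Fth1 to Ftl1 counts was 1.11 ± 0.0236 (SD, n = 5) with DMSO and 1.12 ± 0.0511 with DSHN. It was 1.01 ± 0.0164 under GW3965 and 1.01 ± 0.0418 with both. All 5 GW3965 ratios (0.986 to 1.03) lay below all 5 DMSO ratios (1.09 to 1.15). The log2 ratio differed from DMSO by −0.13 with GW3965 (two-sided exact permutation p = 0.00794, the smallest that 5 against 5 allows, adjusted p = 0.0198 over 5 comparisons) and by −0.13 with both (exact adjusted p = 0.0198), the latter falling to −0.020 with the length correction (exact adjusted p = 0.532). DSHN against DMSO differed by 0.014 (exact adjusted p = 0.853). The combination against DSHN differed by −0.15 (exact adjusted p = 0.0265), which became −0.051 (exact adjusted p = 0.41) with the length correction and missed the threshold without DSHN replicate 3 or any 1 of replicates 1 to 4 of the combination (−0.13 to −0.16, exact adjusted p = 0.0529).

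The transcript of the transferrin receptor overlapped between every treated group and DMSO. Tfrc (GeneID 22042, chromosome 16, 32427714 to 32451612 on the plus strand) had 300.1, 267.1, 251.6, 303.9 and 315.1 CPM with DMSO. The DSHN libraries had 278.8 to 303.2 CPM (median 298.1), the GW3965 libraries 296.6 to 355.8 (median 304.9) and those with both 296.3 to 330.1 (median 316.7). The DMSO libraries were the most scattered. With DSHN the log2 fold change was 0.028 (SE 0.05, edgeR adjusted p = 0.731). With GW3965 it was 0.13 (SE 0.05, adjusted p = 0.0422), a call that was lost with total counts (0.077, adjusted p = 0.273), with only the DMSO and GW3965 libraries (0.13, adjusted p = 0.0993), and without DMSO replicate 2 or 3 (0.10 and 0.085) or GW3965 replicate 2, 4 or 5 (0.14, 0.077 and 0.13). With both it was 0.13 (SE 0.05, adjusted p = 0.0395; 0.27 and adjusted p = 0.000113 with the length correction), lost with total counts (adjusted p = 0.0507) and without DMSO replicate 2 or 3 (0.097 and 0.078) or replicate 2, 4 or 5 of the combination (0.12, 0.11 and 0.12). Tfrc is known to be high in dividing cells. Of 18 listed cell cycle genes, 11 fell with DSHN and all 18 with GW3965, where 14.8% and 23% of tested genes fell. With both, 14 fell and 1 rose (15 and 3 with the length correction), where 32.9% of tested genes fell. Their medians were −0.17, −0.42 and −0.38, and their part in the values of Tfrc was not tested.

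Set against each other, the Slc40a1 transcript rose relative to that of Tfrc. Tfrc itself was not called lower with any treatment (0.028, 0.13 and 0.13), so the ratio mostly restates the rise of Slc40a1. The ratio of Slc40a1 to Tfrc counts was 1.08 ± 0.186 (SD, n = 5) with DMSO, 2.12 ± 0.0745 with DSHN, 2.29 ± 0.247 under GW3965 and 2.2 ± 0.142 with both. The lowest treated ratio was 1.88 and the highest with DMSO 1.31. On the log2 scale the ratio was higher than with DMSO by 0.99, 1.09 and 1.04, each with an exact permutation p of 0.00794 (adjusted p = 0.0132 over 5 comparisons). The combination differed from GW3965 by −0.054 (exact adjusted p = 0.492; −0.12 and 0.0496 without GW3965 replicate 4) and from DSHN by 0.051 (exact adjusted p = 0.417).

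**Figure D3:**
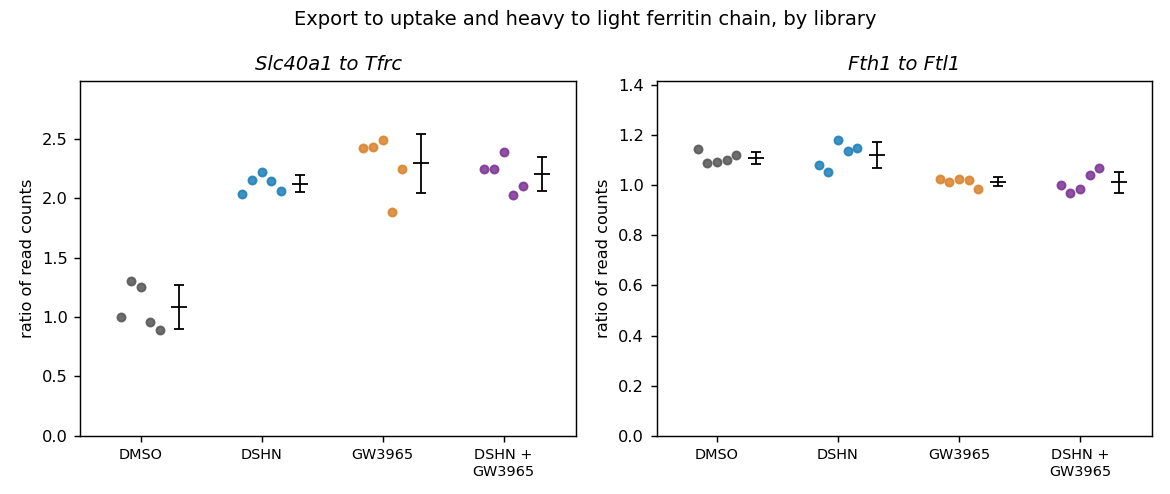
Ratio of Slc40a1 to Tfrc counts (left) and of Fth1 to Ftl1 counts (right) in each library by treatment, with replicates 1 to 5 from left to right and mean ± SD of 5 libraries in black. The first ratio is 0.893 to 1.31 with DMSO and 1.88 to 2.49 in all treated libraries, and the second is lower in the groups that received GW3965.

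The metal carriers of vesicles differed from each other. Slc11a1 (GeneID 18173, chromosome 1, 74414318 to 74429974 on the plus strand), the phagosomal pump, had 324.8 to 354.5 CPM with DMSO (median 336.8), 372.4 to 421.4 with DSHN (median 393.5), 374.6 to 432.5 with GW3965 (median 393.6) and 357.9 to 420.8 with both (median 388). All treated libraries were above all DMSO libraries. It rose by 0.24 with DSHN (SE 0.05, edgeR adjusted p = 0.000286), by 0.23 with GW3965 (SE 0.05, adjusted p = 0.000134) and by 0.19 with both (SE 0.05, adjusted p = 0.000594). Slc11a2 (GeneID 18174, chromosome 15, 100285779 to 100322090 on the minus strand), the endosomal carrier, had 56.5 to 61.7 CPM with DMSO, 58.2 to 69.2 with DSHN, 55.2 to 60.7 under GW3965 and 47.1 to 60 with both, and every pair of groups overlapped. With both compounds it was lower by −0.13 than DMSO (SE 0.05, edgeR adjusted p = 0.0296), a call that did not hold without DMSO replicate 1, 2 or 4 (−0.12 to −0.13) or replicate 4 or 5 of the combination (−0.13 and −0.083), and it turned to 0.063 (adjusted p = 0.258) with the length correction. It was lower than DSHN alone by −0.22 (SE 0.05, adjusted p = 0.000639), which became −0.044 (adjusted p = 0.471) with the correction. The gene model Gm5475 on the opposite strand overlaps it and had 3 counts in all libraries together, against 23440 for Slc11a2. Strand was not used in counting.

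Ncoa4 (GeneID 27057, chromosome 14, 31881836 to 31901812 on the plus strand), the receptor that delivers ferritin to the lysosome, was high with GW3965 alone and much nearer its DMSO level with both compounds. With DMSO the libraries had 66.5, 77.3, 66.5, 57.7 and 52.1 CPM (64 ± 9.65). With DSHN they had 78.4, 89, 95.7, 108.2 and 106.8 CPM (95.6 ± 12.5). With GW3965 they had 174.3, 162.7, 148.5, 122.8 and 138 CPM (149.3 ± 20.2). The 3 groups did not overlap, although DSHN replicate 1 (78.4) lay close to DMSO replicate 2 (77.3). With both compounds the values were 84.1, 87, 76.5, 67 and 74.8 CPM (77.9 ± 7.91), overlapping DMSO and far under GW3965 alone. Replicates 4 and 5 were the lowest in the DMSO, GW3965 and combination groups and the highest in the DSHN group. Ncoa4 rose by 0.57 with DSHN (SE 0.10, edgeR adjusted p = 8.44e-05) and by 1.22 with GW3965 (SE 0.10, adjusted p = 1.44e-10), where it ranked 171 of 13307 genes by size.

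With both compounds Ncoa4 was higher than DMSO by 0.28 (SE 0.10, edgeR adjusted p = 0.0171), and by 0.37 with the length correction (edgeR adjusted p = 0.00238). Without the correction, the call was lost when DMSO replicate 5 (0.21, adjusted p = 0.0726) or replicate 2 of the combination (0.24, adjusted p = 0.052) was left out. The combination was lower than GW3965 alone by −0.94 (SE 0.10, adjusted p = 9.74e-09) and than DSHN alone by −0.29 (SE 0.10, adjusted p = 0.0132). The last call was lost with the length correction (−0.22, adjusted p = 0.064) and without replicate 4 of the combination (−0.24, adjusted p = 0.0503).

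The sensor genes also differed. Aco1 (GeneID 11428, chromosome 4, 40143265 to 40199009 on the plus strand), whose protein switches between cytosolic aconitase and IRP1, had 79.2, 76.3, 78.6, 76.9 and 70.8 CPM with DMSO. The DSHN values were 77.3, 78.7, 76.9, 87.8 and 83.4 CPM, and those with GW3965 were 109, 100.7, 101.4, 95.9 and 97.7 CPM. With both compounds they were 77.3, 82.3, 74.9, 70.2 and 72.5 CPM. Every GW3965 library was above the other 15, which overlapped. Aco1 rose by 0.40 with GW3965 (SE 0.05, edgeR adjusted p = 6.47e-08) and was lower in the combination than with GW3965 alone by −0.42 (SE 0.05, adjusted p = 2.31e-08). Against DMSO its log2 fold change was 0.080 with DSHN (SE 0.05, adjusted p = 0.209) and −0.018 with both (SE 0.05, adjusted p = 0.754). Between the combination and DSHN alone it was −0.097 (SE 0.05, adjusted p = 0.0755), and it was called lower without replicate 2 of the combination (−0.12, adjusted p = 0.0288).

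Ireb2 (GeneID 64602, chromosome 9, 54769942 to 54819818 on the plus strand), which encodes the IRP that is destroyed when iron is ample, had 125.6 to 134 CPM with DMSO (median 132.1), 126.3 to 135.9 with DSHN (median 132.1) and 123.9 to 131 with GW3965 (median 130.4). With both it had 101.8 to 118.2 CPM (median 111.7), below all other libraries. The log2 fold change of the combination was −0.25 against DMSO (SE 0.04, edgeR adjusted p = 1.58e-06), −0.23 against GW3965 (SE 0.04, adjusted p = 9.03e-06) and −0.25 against DSHN (SE 0.04, adjusted p = 2e-06). It has the longest exons of the 9 genes, and with the length correction these values were −0.0058, 0.0098 and −0.023 (adjusted p = 0.898, 0.839 and 0.629), so no fall remained.

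The combination was also set against each compound. Against GW3965 alone, 2 of the 9 iron genes were higher and 3 lower, where 57.8% of tested genes were called, 28.3% higher and 29.5% lower, and 5 did not overlap (42.4% of tested genes). The higher ones were Fth1 and Ftl1 and the lower ones Ncoa4, Aco1 and Ireb2. With the length correction Fth1 remained higher and Ncoa4 and Aco1 lower, where 47.3% of tested genes were called. Against DSHN alone, 2 were higher (Slc40a1 and Ftl1) and 3 lower (Slc11a2, Ncoa4 and Ireb2), where 58.1% of tested genes were called, 28.6% higher and 29.5% lower, and 3 did not overlap (42.5% of tested genes). With the correction Slc40a1 and Tfrc (0.22, edgeR adjusted p = 0.00114) were higher and Fth1 and Ftl1 lower, where 46.4% were called. The medians of the 9 genes were −0.058 and −0.043, beside 0.017 and 0.011 over all genes. With the correction the medians of the 9 genes were 0.026 and −0.023, so the first turned.

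The design also asks whether DSHN acts differently when LXR is activated, which was tested as the DSHN effect with GW3965 minus the effect without it. A value of 0 means that log2 effects add up. None of the 9 iron genes had a called difference above 0 and 6 had one below it, where 50.2% of tested genes were called, 23.7% above 0 and 26.5% below. With the length correction 6 were also below 0, of 44.2% called, and Fth1 and Ftl1 took the place of Ireb2 and Slc11a2. With total counts only, 2 iron genes were called above and 5 below 0, and the share above 0 among all called genes went from 47.2% to 58.8%. Ncoa4 had the largest, at −1.51 (SE 0.14, edgeR adjusted p = 5.99e-09; rank 98 of 13307 by size), followed by Slc40a1 at −1.08. Aco1 had −0.50 (SE 0.07, adjusted p = 7.75e-07) and Slc11a1 −0.28 (SE 0.06, adjusted p = 0.000843). These 4 were called with and without the length correction. Ireb2 had −0.23 (SE 0.05, adjusted p = 0.000652) and Slc11a2 −0.18 (SE 0.07, adjusted p = 0.0457), and with the correction both were lost (−0.007, adjusted p = 0.927, and −0.017, adjusted p = 0.868). The call on Slc11a2 was also lost with total counts (−0.10), with a stricter filter on low counts (−0.17) and in 16 of 20 fits that left out 1 library (−0.12 to −0.18). Fth1 and Ftl1 had 0.067 and 0.085 (adjusted p = 0.262 and 0.227). Their sign depends on the processing: with the correction they were below 0 and called (−0.13, adjusted p = 0.0145, and −0.18, adjusted p = 0.00198), and with total counts above 0 and called (0.14 and 0.16). Tfrc had −0.035 (SE 0.07, adjusted p = 0.73).

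**Figure D4:**
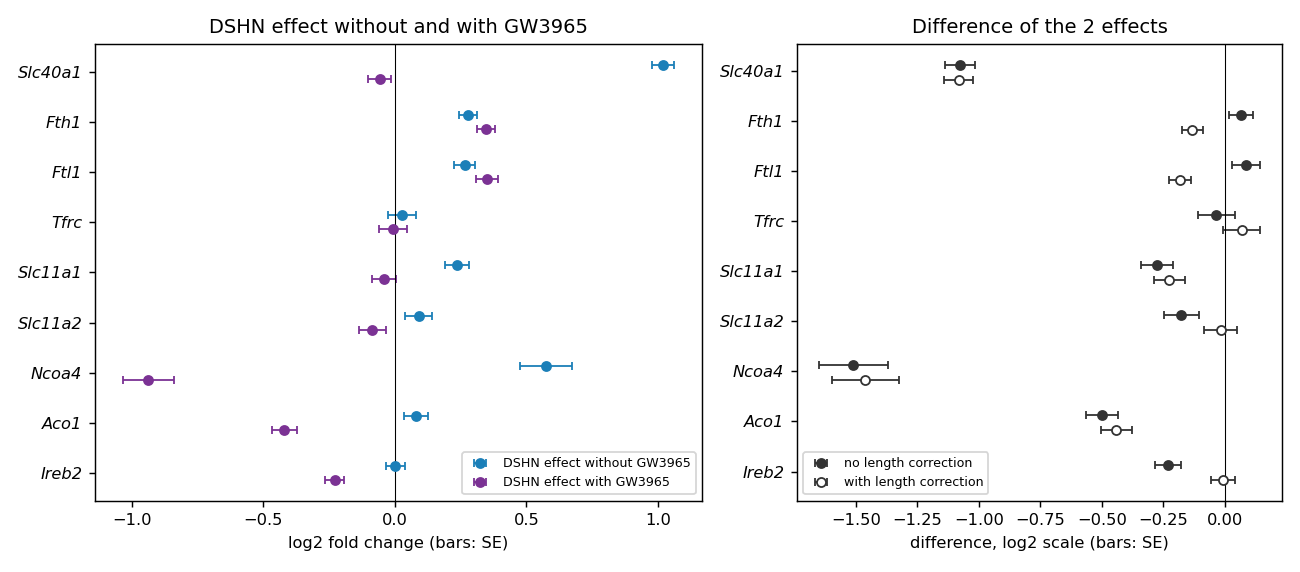
Left, log2 effect of DSHN on each iron gene without GW3965 (blue) and with it (purple), with SE bars. Right, the difference of these effects, filled without and open with the length correction; Ncoa4 (−1.51), Slc40a1 (−1.08), Aco1 (−0.50) and Slc11a1 (−0.28) stay below 0 in either case, while Ireb2 and Slc11a2 move to near 0.

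Stromal marker transcripts moved with the combination as well. Of 5 tested fibroblast and stromal markers all were lower with both compounds than with DMSO, DSHN or GW3965 (3, 3 and 4 with the length correction), where 32.9%, 29.5% and 29.5% of tested genes were lower. The sums over the whole list are given above, and the part of these markers in the values of the combination was not tested. Dcn and Lum, also on that list, had too few reads to be tested. Of 8 macrophage markers 4 rose and 3 fell with DSHN, 3 rose and 2 fell with GW3965, and 2 rose and 5 fell with both (1 and 7 with the length correction). Of all tested genes 14.1% rose and 14.8% fell with DSHN, 23.6% and 23% with GW3965, and 31.9% and 32.9% with both. With both compounds Mertk and Lyz2 rose (0.94 and 0.20; 1.17 and −0.13 with the correction), Cd68 had 0.012 (−0.28 with the correction), and Adgre1, Csf1r, Itgam, Fcgr1 and Cd14 fell by 0.18 to 0.70.

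Heme from red cells is the main source of the iron that such macrophages recycle in the body. Of 11 tested genes of heme breakdown and transport, 6 rose and none fell with DSHN, 7 rose and 1 fell with GW3965, and 7 rose and 2 fell with both (6 and 1 with the length correction). Of tested genes in general 14.1%, 23.6% and 31.9% rose, and 64.8% were called in either direction with both. The medians of the list were 0.10, 0.19 and 0.28, beside those over all genes given above. Blvrb, a biliverdin reductase, went from 150.7 CPM ± 8.34 with DMSO to 212.2 ± 10.9 with DSHN, 198.2 ± 4.67 under GW3965 and 258.9 ± 15.5 with both. Its log2 fold changes were 0.49, 0.40 and 0.78 (edgeR adjusted p = 3.16e-09, 2.92e-08 and 4.64e-14; the last is 0.43 with the length correction). Slc48a1, which lets heme out of the phagolysosome, rose by 0.26, 0.18 and 0.54, and Blvra by 0.22, 0.19 and 0.53. Flvcr1, a heme exporter of the cell surface, rose by 0.17, 0.26 and 0.28.

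Hmox1, the inducible heme oxygenase, behaved otherwise. It had 732.6 CPM ± 111.8 with DMSO, 712.4 ± 51.9 with DSHN, 754.1 ± 63.2 under GW3965 and 993.7 ± 79.8 with both. It was called higher with both (0.44, SE 0.08, edgeR adjusted p = 1.61e-05; 0.21 and adjusted p = 0.0135 with the length correction) but not with DSHN (−0.040, adjusted p = 0.739) or GW3965 (0.042, adjusted p = 0.684). The difference of the DSHN effects was 0.44 (SE 0.11, adjusted p = 0.00148; 0.25 and adjusted p = 0.0487 with the correction), opposite in sign to that of Slc40a1. Lrp1, a scavenger receptor that takes up heme bound to hemopexin, rose by 0.37 with GW3965 and fell by 0.80 with both (−0.55 with the correction).

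Among 12 tested ferric reductases, ferroxidases and other metal carriers, 2 rose and 4 fell with DSHN, 3 rose and 4 fell with GW3965, and 2 rose and 4 fell with both (4 rose and 2 fell with the length correction), with medians of 0.021, −0.069 and −0.040. With both, 6 of the 12 were thus called, a smaller share than the 64.8% of tested genes. With DSHN and GW3965 alone, 28.9% and 46.5% of tested genes were called. Slc39a14, which carries zinc and iron not bound to transferrin into cells, fell with every treatment, from 53.7 CPM ± 4.47 to 35.9 ± 2.58, 32.6 ± 1.87 and 25.1 ± 2.02 (log2 fold changes −0.58, −0.72 and −1.10, edgeR adjusted p = 5.17e-08, 3.45e-10 and 9.25e-14). Its exons are long (10218 bases), and the value with both is uncorrected. Steap3, an endosomal ferric reductase, fell by 0.20 with DSHN and by 0.60 with GW3965; with both it had −0.099 (adjusted p = 0.0444, and 0.0745 with the correction). Cp, which encodes the ferroxidase ceruloplasmin that works with ferroportin, rose by 0.83, 0.93 and 0.48 from a low level of 4.43 CPM ± 0.832. Trf, the transferrin gene, rose by 0.18, 0.57 and 0.40.

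Of 13 tested genes for iron sensing and iron chaperones, 5 rose and 1 fell with DSHN, 8 rose and 1 fell with GW3965, and 3 rose and 2 fell with both (7 and 4 with the length correction), with medians of 0.076, 0.15 and 0.062. Rises were called in 14.1%, 23.6% and 31.9% of tested genes. Spic, a transcription factor of red pulp macrophages, rose by 0.67, 0.63 and 0.82 from 3.23 CPM ± 0.569 with DMSO. Its exons are short (1266 bases), and the value with both is uncorrected. Hfe, which binds the transferrin receptor, rose by 0.31, 0.38 and 0.35. Nfe2l2, which encodes NRF2, a factor known to drive ferritin and ferroportin genes, rose by 0.19 with DSHN (edgeR adjusted p = 0.00017) and by 0.15 with GW3965 (adjusted p = 0.0011); with both it had 0.035 (adjusted p = 0.386; 0.088 and adjusted p = 0.0287 with the correction). Bach1, the heme-sensitive repressor of the same genes, rose by 0.18 and 0.12 and had 0.0064 with both (adjusted p = 0.907; 0.21 and called with the correction). Of 15 listed NRF2 target genes outside iron handling, 12 rose and none fell with DSHN, 6 rose and 6 fell with GW3965, and 10 rose and 1 fell with both (12 and 2 with the length correction), beside the same shares of tested genes. Their medians were 0.18, −0.058 and 0.35 (the last 0.18 with the correction), and their part in the values of the iron genes was not tested. Fbxl5, the iron sensor that marks IRP2 for destruction, had −0.023, 0.074 and 0.083, none of them called without the correction, and with it the combination was called higher (0.25). Epas1, which encodes HIF-2 alpha, rose by 0.23, 0.56 and 0.28, and Herc2, a ubiquitin ligase known to mark NCOA4 for destruction in iron-rich cells, fell with both (−0.76; −0.54 with the correction).

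**Figure D5:**
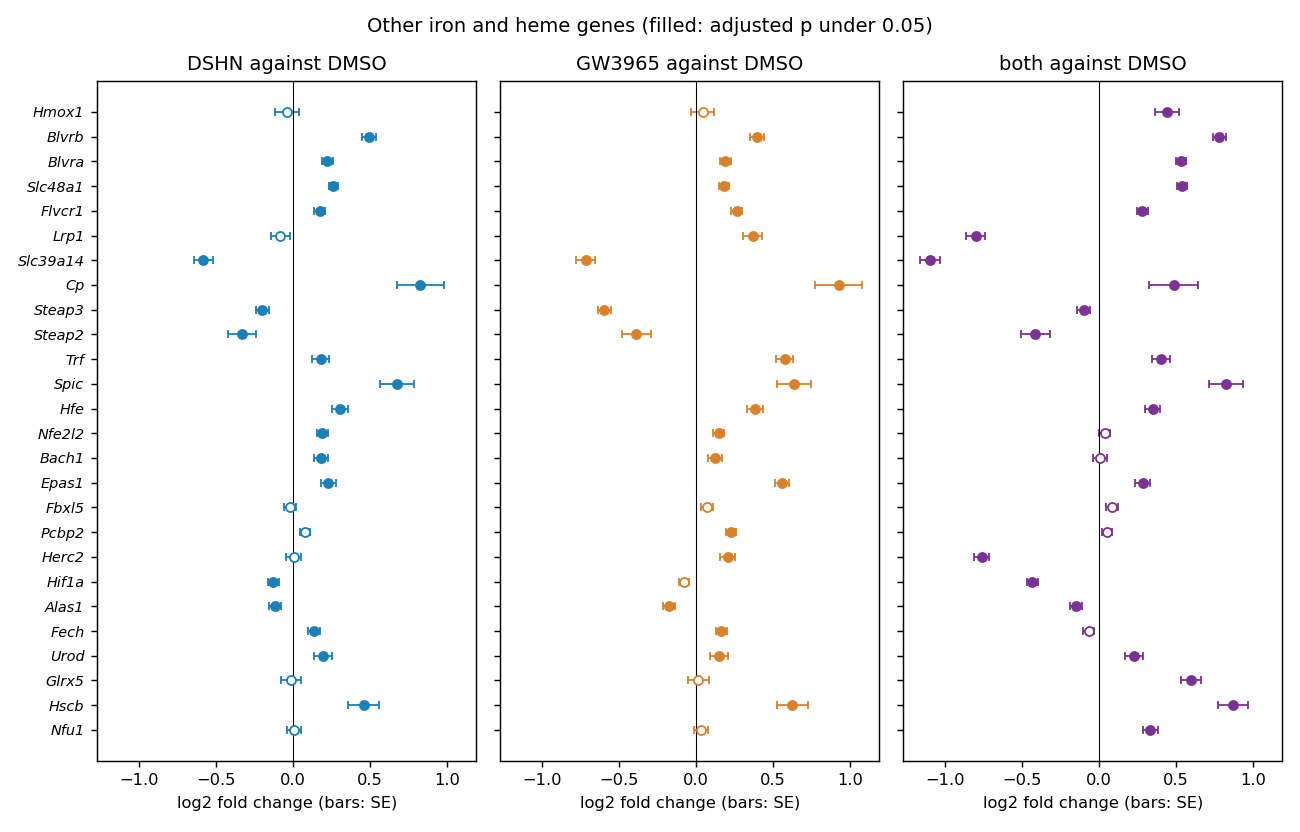
Log2 fold changes against DMSO of 26 other iron and heme genes for DSHN, GW3965 and both compounds, with SE bars and no length correction. Filled points are called at an adjusted p under 0.05; Slc39a14 lies at −0.58, −0.72 and −1.10, and Hmox1 is filled with both compounds.

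Genes that use iron were called most often in the combination, as were tested genes in general (28.9% called in DSHN, 46.5% in GW3965 and 64.8% in the combination, each against DMSO). Of 21 tested genes of iron-sulfur cluster assembly, 2 rose and 1 fell with DSHN, 1 rose and 2 fell with GW3965, and 13 rose and 3 fell with both (8 and 2 with the length correction; medians 0.0044, 0.013 and 0.24, the last 0.12 with the correction). Glrx5, a glutaredoxin that hands on clusters in mitochondria, had 19 CPM ± 1.39 with DMSO and 28.8 ± 1.67 with both (0.60, SE 0.07, edgeR adjusted p = 1.02e-08; 0.25 with the correction). Hscb, a cochaperone of cluster transfer, rose by 0.46, 0.62 and 0.87 (the last 0.48 with the correction). Of 8 tested heme synthesis genes, 2 rose and 1 fell with DSHN and with GW3965, and 5 rose and 1 fell with both (2 and 1 with the correction). Their medians were −0.0034, −0.015 and 0.18, and the last turned to −0.023 with the correction. Alas1, the rate-limiting enzyme of heme synthesis outside the red lineage, fell by 0.12, 0.18 and 0.15. Of 5 tested other genes with known IREs in their transcripts, 2 rose and 1 fell with DSHN, 1 rose with GW3965, and 1 rose and 3 fell with both (1 and 2 with the correction; medians 0.011, 0.040 and −0.22).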

How the data were processed

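The deposited values are unnormalized read counts of genes, with 1 file for each library. Per the file headers, the authors counted exon reads with featureCounts v2.0.0 on RefSeq annotation of GRCm39, and no option for strand, multi-mapped reads or read pairs stands in the commands; STAR is named in the submitters' processing notes. Of 46318 genes, 44749 were named from a RefSeq table by GeneID, and 1569 with 0.474% of counts were not. The 9 genes and all lists were chosen with earlier results of these data known.

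The 13307 genes that passed filterByExpr were tested by quasi-likelihood in edgeR 4.0.16 (R 4.3.3) with TMM scaling, all 20 libraries, 1 mean per treatment and 6 contrasts, and p-values were adjusted by Benjamini-Hochberg within a contrast. The length correction fitted each library's deviation to log2 exon length with a spline (5 degrees of freedom) and used the fit as an offset. Replicates differed beyond counting error (chi-square per degree of freedom 2.42 to 13 over 40 pairs). Count ratios were tested by exact permutation. From each list up to 3 called genes with the smallest adjusted p per contrast were eligible to be named, and Hmox1, Fbxl5, Nfe2l2 and Bach1 were always eligible. Alternatives were DESeq2 1.42.0, its size factors, limma 3.58.1 voom, total counts, 2 filters, only the compared groups, a replicate block, added pseudogenes and leaving out each library. Coordinates of genes are GRCm39 and those of hairpins GRCm38.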

Additional observations from a re-analysis of the deposited data

Results flagged for a closer look

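The DSHN effect differed with and without GW3965 for 6 of the 9 iron genes by a test of the difference itself (edgeR's quasi-likelihood test, log2 scale): Slc40a1 at −1.08, Ncoa4 at −1.51, Aco1 at −0.50, Slc11a1 at −0.28, Ireb2 at −0.23 and Slc11a2 at −0.18. Of all tested genes 50.2% were called for this difference, 23.7% above 0 and 26.5% below, and 44.2% were called with the length correction. The first 4 were called with the length correction too, and Ireb2 and Slc11a2 were not. With total counts only, 2 iron genes were called above 0 and 5 below.

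In Ftl1, GW3965 replicate 4 had 9383 CPM while the other 4 libraries had 10000 to 10140 CPM, a gap that is large for the range of the group. Of 36 groups (9 genes in 4 treatments) this was the only one so marked, where chance marks about 1 in 20.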

How the results depend on the processing

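No sign changed with DESeq2 size factors, the DESeq2 Wald test, limma voom, no filter, only the compared groups, the replicate block or added pseudogenes. Among called values the sign turned for 3, all with the length correction: Ftl1 against DSHN (0.22 to −0.091) and Slc11a2 against DMSO (−0.13 to 0.063) and Ireb2 against GW3965 (−0.23 to 0.0098), each in the combination. With total counts only, signs turned for Ireb2 with DSHN (−0.018), Fth1 with GW3965 (−0.046), Tfrc and Slc11a1 between the combination and GW3965 (0.049 and 0.015) and the Tfrc difference of DSHN effects (0.040), and the called differences of DSHN effects went from 0 above and 6 below 0 to 2 above and 5 below. With a stricter filter Tfrc had 0.0053 between the combination and GW3965. With the length correction, signs turned for Fth1 with GW3965 (−0.010); Slc11a2 and Aco1 with both against DMSO (0.063 and 0.078); Tfrc, Slc11a1, Slc11a2 and Ireb2 with both against GW3965 (0.11, 0.026, 0.091 and 0.0098); Fth1, Ftl1 and Slc11a1 with both against DSHN (−0.14, −0.091 and 0.031); and the Fth1, Ftl1 and Tfrc differences of DSHN effects (−0.13, −0.18 and 0.069). With the correction and a replicate block the same 13 values were −0.010, 0.062, 0.078, 0.11, 0.025, 0.089, 0.0095, −0.14, −0.091, 0.029, −0.13, −0.18 and 0.067. Called iron genes in the combination against GW3965 went from 5 to 3 with the correction. For the Fth1 to Ftl1 ratio the correction gave −0.020 (both against DMSO), −0.051 (against DSHN) and 0.082 (against GW3965), and for Slc40a1 to Tfrc −0.062 (both against DSHN). Why values moved was not tested beyond the correction itself.

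Leaving out 1 library gave ranges of −0.048 to 0.0084 (Aco1, both against DMSO), −0.0069 to 0.022 (Fth1, GW3965), −0.016 to 0.010 (Ireb2, DSHN), and for Tfrc −0.018 to 0.059 (DSHN), −0.020 to 0.050 (both against GW3965) and −0.066 to 0.026 (difference of DSHN effects). For the Fth1 to Ftl1 ratio they were −0.0053 to 0.035 (DSHN), −0.024 to 0.012 (both against GW3965) and −0.17 to −0.13 (both against DSHN, exact adjusted p of 0.0529 without DSHN replicate 3 or any 1 of combination replicates 1 to 4), and for Slc40a1 to Tfrc −0.12 to −0.023 (both against GW3965).

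The labels do not say that equal replicate numbers share a source, so libraries were not treated as paired. Of 30 same-numbered pairs, 10 had deviations correlated above 0.1. Among the 5 libraries of another group, the best match of a library had its own number in 11 of 15 comparisons among DMSO, GW3965 and the combination (r of 0.0268 to 0.247). With DSHN this held in 1 of 15 (r of −0.205 to 0.147). The matches outside DSHN are a hint of shared sources from the data and not from the design. In the replicate block the called iron genes of the combination against DSHN went from 5 to 7, with Fth1 (0.079) and Tfrc (0.097) added, and the other contrasts kept their counts. Sign flips of 5 pairs cannot give a p below 0.0625, and the ratio differences of −0.13, −0.13, −0.15, 0.99, 1.09 and 1.04 had an adjusted p of 0.104 there. Depth was at least 16855029 counts per library.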
